A study of Mus musculus with 21 samples.

Results

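Renal artery stenosis (RAS) reduces blood flow to the kidney, and macrophages collect in the tissue behind the narrowing. The question addressed here was whether 2 macrophage populations derived from blood monocytes, CD11chiMϕ and CD11cloMϕ, differed in how their RNA levels changed with RAS. The measure was therefore a difference of differences: RAS minus Sham in CD11chiMϕ, less RAS minus Sham in CD11cloMϕ, called the interaction below. Of the 21 libraries of the series, 14 entered it, and the 7 libraries of kidney resident macrophages (KRM) were left out of the contrast. There were 3 Sham and 4 RAS libraries of CD11chiMϕ, and 3 Sham and 4 RAS libraries of CD11cloMϕ, each made from cells sorted by flow cytometry. All came from male C57BL/6J mice, aged 24 weeks by the labels, which also name 5 h of flow sorting. In RAS mice a cuff narrowed the right renal artery, and in Sham mice the artery was freed and no cuff was placed. Both populations were gated as F4/80 and CD64 positive cells with high CD11b, the gate reaching down to low CD64, and they were separated by high or by low to absent CD11c. Cells positive for CD3, NK1.1 or Ly6G were among those gated out. The libraries were not tied to individual animals in the labels, so p-values measure the spread between libraries, which may in part be technical.

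Monocytes that enter injured tissue lose the monocyte surface protein Ly6C, and part of them take on genes of resident macrophages, among them complement C1q and Cx3cr1. Others keep a dendritic-like state marked by the integrin CD11c (Itgax) and by high MHC class II. NF-kB, a family of transcription factors held inactive in the cytoplasm until a danger signal arrives, drives interleukin 1β and many chemokines in either kind of cell. TGF-β, released by macrophages and other cells, acts through the receptors Tgfbr1 and Tgfbr2 and is known for its part in kidney fibrosis.

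Each library held 6891177 to 10120529 estimated counts over 14606 to 16737 genes. The Sham libraries numbered 3 stood apart in both populations: markers of the proximal tubule, the main epithelial cell of the kidney cortex, summed to 23800 CPM (counts per 1000000 after scaling) in the CD11chiMϕ library and to 6420 CPM in the CD11cloMϕ library, against 92.1 to 1440 CPM in the other 12. CD11chi RAS libraries 3 and 4 were closer to each other than any other pair of 1 group, with a mean chi-square of 5.28 per gene where counting noise gives 1 and the other pairs gave 23.7 to 410. They differed beyond counting noise and were used as 2 libraries, and counts with the pair added together are given below for the total and for several gene groups. The study's methods name fewer RAS libraries in each population than the labels do, and all labelled libraries were used. CD11chi RAS library 1 was nearest to CD11chi Sham library 2, and CD11clo RAS library 1 was nearest to CD11clo Sham library 1. In such sorted bulk samples, fewer cells of a kind and less RNA per cell cannot be told apart.

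S100 and annexin genes (median interaction 1.38 on the log2 scale) and cytosolic ribosomal proteins (1.03) leaned towards a higher RAS response in CD11chiMϕ, and complement genes (-0.85) and the genes the study names as higher in KRM (-1.76) towards a higher response in CD11cloMϕ. Il1b, the interleukin 1β gene, had nearly the same estimated response in both, with an interaction of -0.057 ± 0.89. These are differences at an unadjusted threshold and no more. No gene passed an adjusted p of 0.05 for the interaction among 13540 genes tested with edgeR's quasi-likelihood test, and the smallest adjusted p was 0.735 (percent called 0). At an unadjusted p under 0.05 there were 900 genes, where 677 are expected with no difference anywhere. DESeq2 called 15 genes at the same adjusted threshold and limma on the authors' log2 table called 0. The threshold the study used for its own comparisons, a change of more than 2-fold with an unadjusted p under 0.05, held for 711 genes. Of these, 283 had a larger RAS response in CD11chiMϕ (2.09% of genes tested) and 428 a larger response in CD11cloMϕ (3.16%), so 60.2% were lower in CD11chiMϕ. With limma on the log2 table the split was 323 higher and 252 lower, and 43.8% were lower. "Past the threshold" is used below for this unadjusted rule, which the spread of these libraries can meet by itself in part of the genes. The typical size was small beside the error: the median gene had an interaction of 0.459 in size on the log2 scale and a standard error (SE) of 0.557.

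The separate responses were of unequal direction. In CD11chiMϕ, 577 genes were past the threshold higher in RAS (4.26%) and 614 lower (4.53%). In CD11cloMϕ, 577 were higher (4.26%) and 138 lower (1.02%). Neither response held a gene with an adjusted p under 0.05 by edgeR (percent called 0 in each), with smallest values of 0.148 and 0.0913. At an unadjusted p under 0.05 edgeR gave 1915 genes in CD11chiMϕ and 946 in CD11cloMϕ, DESeq2 called 229 and 128 genes at an adjusted p under 0.05, and limma called 53 and 0. The 2 directions of the interaction were built differently from these responses. Among the 283 genes with the larger response in CD11chiMϕ, 144 (50.9%) were past the threshold upward in CD11chiMϕ and 10 (3.53%) were past it downward in CD11cloMϕ. Their median log2 change was 1.09 in CD11chiMϕ and -0.30 in CD11cloMϕ. Among the 428 genes with the larger response in CD11cloMϕ, 198 (46.3%) were past the threshold upward in CD11cloMϕ and 89 (20.8%) were past it downward in CD11chiMϕ, with median changes of -0.99 in CD11chiMϕ and 1.72 in CD11cloMϕ. The interaction is computed from both responses, so these shares describe how it arose and are no test.

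**Figure D1:**
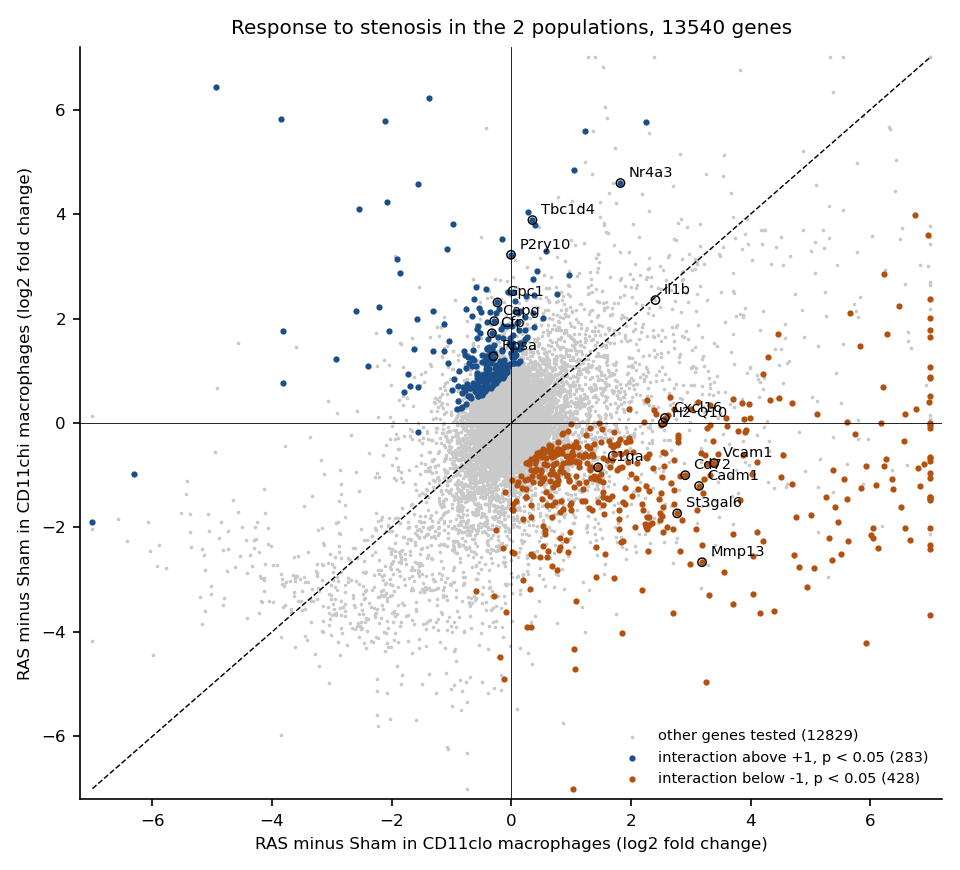
Log2 change with RAS in CD11cloMϕ (horizontal axis) and in CD11chiMϕ (vertical axis) for the 13540 genes tested, 1 point per gene, with the genes past the threshold for the interaction in colour and genes described in the text circled. The 283 genes higher in CD11chiMϕ lie above the diagonal of equal change and the 428 lower ones below it, Il1b sits on the diagonal, and 46 genes beyond 7 log2 units are drawn at the edge.

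The genes named next are the 12 with the smallest interaction p in each direction among genes at an average log2 CPM of at least 3. The adjusted p by edgeR was 0.735 for each of the 24, and none changed sign in the alternative analyses that tested it, 27 for each gene but Ube2c, A430084P05Rik and Adam22, which had 26. Values are CPM per library in the order of the library numbers, and errors of log2 changes are SE.

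Gpc1, which encodes the cell-surface heparan sulfate proteoglycan glypican 1 (chromosome 1, 92831645 to 92860779, plus strand of GRCm38), had the smallest p among genes with the larger response in CD11chiMϕ. It was at 10.6, 5.55 and 4.39 CPM in CD11chi Sham and at 25.6, 33.5, 37.2 and 39.7 CPM in CD11chi RAS. In CD11cloMϕ it was at 13.5, 25.9 and 8.94 CPM in Sham and at 13.8, 17.8, 9.09 and 14.3 CPM in RAS. All 4 CD11chi RAS libraries lay above all 3 CD11chi Sham libraries, while the CD11clo groups overlapped. The interaction was 2.54 ± 0.56 log2 units (95% interval 1.34 to 3.74, unadjusted p 0.000503 by edgeR). Tbc1d4, a GTPase-activating protein of vesicle traffic known for insulin-driven glucose transporter movement (chromosome 14, 101442360 to 101609191, minus strand), was at 17.4, 14.2 and 15.1 CPM in CD11chi Sham and at 30.6, 153, 354 and 383 CPM in CD11chi RAS. CD11cloMϕ held 7.59 to 16.2 CPM in Sham and 7.98 to 17.1 CPM in RAS. CD11chi RAS libraries 2 to 4 were far above Sham, and library 1 was the closest to it. Its interaction was 3.53 ± 0.88 (p 0.00139).

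Ezh2, the histone H3 lysine methyltransferase of the Polycomb complex, was the gene of these 12 whose RAS and Sham libraries were apart in both populations. CD11chiMϕ had 18.3, 14.7 and 16.6 CPM in Sham and 19.02, 40.6, 31.2 and 29.8 CPM in RAS. CD11cloMϕ had 9.38, 10.7 and 13.5 CPM in Sham and 7.88, 6.58, 7.56 and 7.91 CPM in RAS. The RAS libraries lay above Sham in CD11chiMϕ and below Sham in CD11cloMϕ with no overlap in either, and the interaction was 1.44 ± 0.36. Fgfr1, a receptor of fibroblast growth factors, was at 110.4, 121 and 108 CPM in CD11clo Sham and at 69.6, 94.8, 35.3 and 61.1 CPM in CD11clo RAS, where every RAS library was below every Sham library. In CD11chiMϕ it was at 80.5, 60.7 and 42.9 CPM in Sham and at 71.8, 119, 232 and 215 CPM in RAS, with overlap, and its interaction was 2.17 ± 0.56. Ube2c, the ubiquitin-conjugating enzyme that works with the anaphase-promoting complex in mitosis, was at 13.8, 7.602 and 10.5 CPM in CD11chi Sham and at 17.3, 34.6, 55.1 and 50.8 CPM in CD11chi RAS. It stayed at 0.599 to 2.48 CPM in CD11clo Sham and 0.219 to 1.04 CPM in CD11clo RAS, a level of few counts, and its interaction was 3.02 ± 0.79.

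The other 7 genes of this direction were Hvcn1, P2ry10, Anxa4, Ms4a4b, Ctdnep1, Armc8 and Ccdc102a. Hvcn1, the voltage-gated proton channel that supports the oxidative burst, was at 29.4, 32.1 and 21.3 CPM in CD11chi Sham and at 67.4, 74.5, 92.5 and 84.8 CPM in CD11chi RAS, so that every RAS library was more than 2-fold above every Sham library. Its CD11clo groups overlapped at 40.9 to 79.8 CPM and 41.5 to 80.8 CPM, and the interaction was 1.503 ± 0.38. P2ry10, a receptor for lysophospholipids on leukocytes, was at 12.5, 12.8 and 12.4 CPM in CD11chi Sham and at 20.2, 81.5, 173 and 195 CPM in CD11chi RAS. RAS libraries 3 and 4 were highest, and the interaction was 3.22 ± 0.85. Anxa4, a calcium-dependent phospholipid-binding protein, was at 68.4 to 88.2 CPM in CD11chi Sham and 120.3 to 250.5 CPM in CD11chi RAS, with an interaction of 1.29 ± 0.33. In Ms4a4b, a membrane protein best known from T cells, CD11chi RAS library 1 was the highest at 74.5 CPM and the other RAS libraries reached 21.9 to 31.5 CPM, against 8.03 to 8.94 CPM in Sham. Its interaction was 2.397 ± 0.65, and summed T and NK cell markers were also highest in CD11chi RAS library 1, as given below. Whether those cells carried its signal was not tested. The interactions of Ctdnep1, Armc8 and Ccdc102a were 1.39 ± 0.38, 1.55 ± 0.43 and 1.27 ± 0.35. In each the CD11chi RAS libraries lay above all CD11chi Sham libraries.

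St3gal6, a sialyltransferase that builds selectin ligands (chromosome 16, 58468125 to 58524243, minus strand), had the largest interaction in size among the 12 genes of the other direction. It was at 76.8, 155 and 89.6 CPM in CD11chi Sham and at 84.6, 13.3, 17.5 and 13.3 CPM in CD11chi RAS. CD11cloMϕ held 13.2, 9.65 and 15.7 CPM in Sham and 23.1, 26.9, 215 and 87.2 CPM in RAS. CD11chi RAS library 1 was within the Sham range and the other RAS libraries were below it, while all CD11clo RAS libraries were above CD11clo Sham. The interaction was -4.505 ± 1.16 (95% interval -7.01 to -1.997, unadjusted p 0.00187), and it ran from -5.64 to -3.63 when 1 library at a time was left out. Cadm1, an immunoglobulin-type adhesion molecule (chromosome 9, 47530173 to 47857637, plus strand), was at 183, 342 and 167 CPM in CD11chi Sham and at 216, 80.2, 54.9 and 48.95 CPM in CD11chi RAS. In CD11cloMϕ it was at 8.79, 6.62 and 7.32 CPM in Sham and at 16.1, 9.93, 196 and 45.4 CPM in RAS. CD11clo RAS library 3 was by far the highest of that group. The interaction was -4.34 ± 1.22, and it was -2.92 without CD11clo RAS library 3 and -5.05 without CD11chi RAS library 1.

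Cd72, a C-type lectin of B cells and macrophages, was at 578, 743 and 326 CPM in CD11chi Sham and at 469, 205, 224 and 201 CPM in CD11chi RAS. CD11cloMϕ held 33.6, 28.5 and 19.2 CPM in Sham and 63.1, 28.9, 578 and 145 CPM in RAS. CD11clo RAS library 2 was within the Sham range and library 3 was the highest, and the interaction was -3.91 ± 1.1. A430084P05Rik, now named Scimp and coding for a transmembrane adaptor of antigen-presenting cells, was at 8.49, 5.61 and 6.03 CPM in CD11clo Sham and at 12.3, 19.3, 103 and 42.5 CPM in CD11clo RAS. In CD11chiMϕ it spanned 60.9 to 171 CPM in Sham and 51.98 to 90.5 CPM in RAS, and the interaction was -3.43 ± 0.84. Tle1, a transcriptional corepressor, was at 133, 157 and 87.7 CPM in CD11chi Sham and at 99.5, 49.2, 47.4 and 57.4 CPM in CD11chi RAS. It was at 29.4 to 32.3 CPM in CD11clo Sham and 39.2 to 99.9 CPM in CD11clo RAS, with RAS above Sham, and its interaction was -1.92 ± 0.51.

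Adam22, a member of the ADAM family without protease activity, had a log2 change of 3.89 ± 0.83 in CD11cloMϕ and of 0.082 ± 0.69 in CD11chiMϕ. CD11clo Sham held 1.198, 1.46 and 0.215 CPM and CD11clo RAS 7.28, 5.43, 35.05 and 9.69 CPM, with no overlap and an interaction of -3.81 ± 1.04. H2-Q10, a class I MHC gene whose reads can be shared with its near-identical relatives, was at 12.98, 11.2 and 6.68 CPM in CD11clo Sham and at 16.1, 53.4, 62.8 and 107 CPM in CD11clo RAS, with all RAS libraries above Sham. It was at 3.89 to 9.24 CPM in CD11chi Sham and 5.39 to 9.69 CPM in CD11chi RAS, and its interaction was -2.53 ± 0.72. Trove2, which encodes the Ro60 RNA-binding protein, had an interaction of -2.38 ± 0.64, and Syt11, a synaptotagmin of vesicle traffic, one of -1.63 ± 0.46. For Nbeal1, 1810011H11Rik (now Tmem273) and Arhgap12 the interactions were -1.39 ± 0.38, -2.17 ± 0.62 and -1.36 ± 0.39. Syt11 was the gene of these 12 in which all CD11chi RAS libraries lay below CD11chi Sham, at 27.7 to 39.2 CPM against 42.7 to 73.96 CPM.

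**Figure D2:**
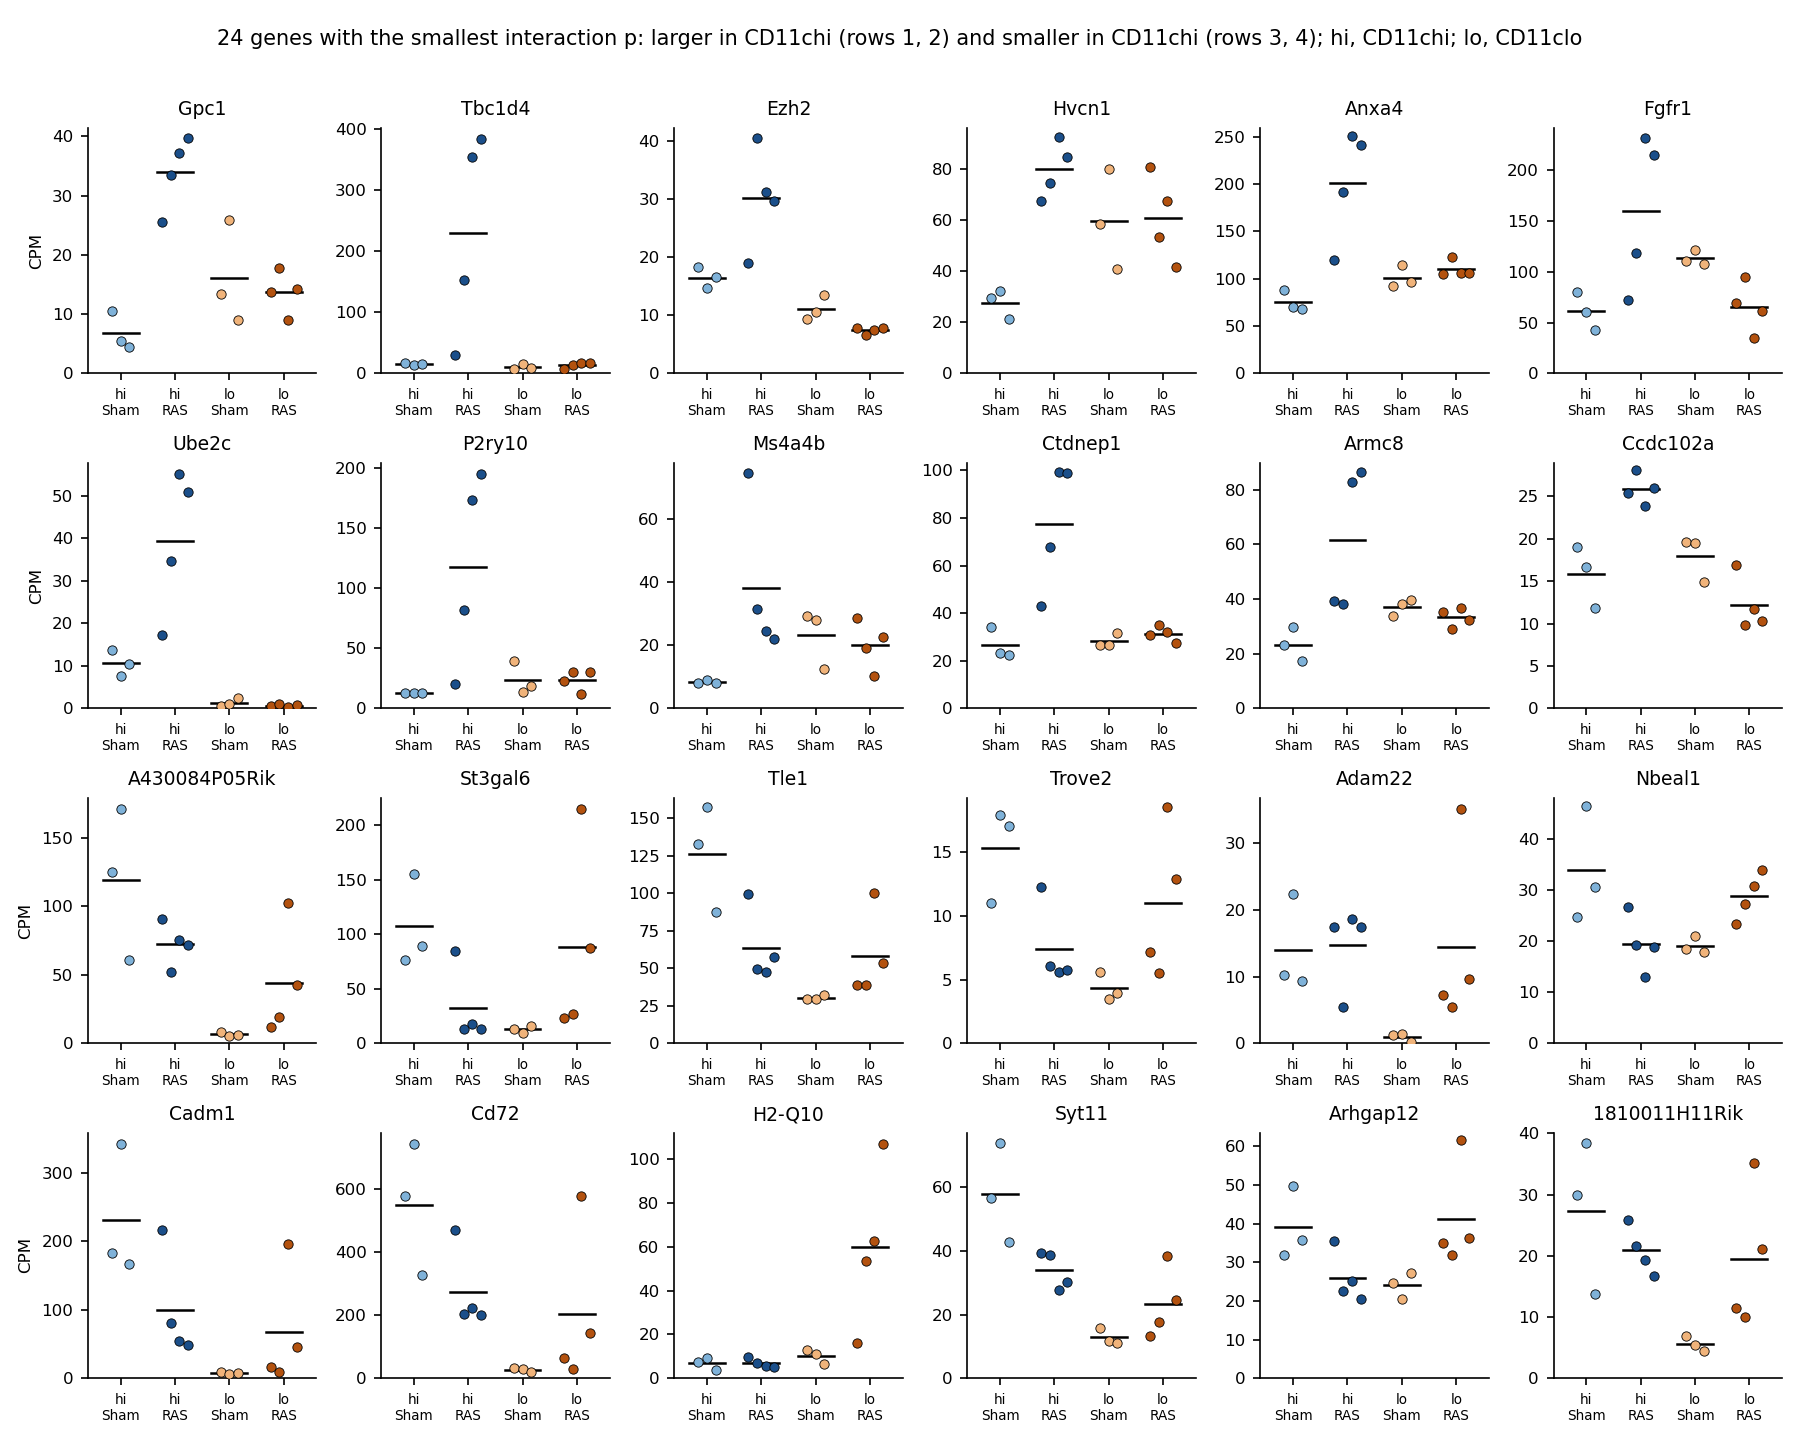
CPM on a linear axis in each of the 14 libraries for the 24 genes with the smallest interaction p, 1 point per library in the order of the library numbers, with a bar at the group mean. The CD11chi groups overlap in the panel of Fgfr1, and in the other upper panels the CD11chi RAS points stand over CD11chi Sham, as for Gpc1 at 25.6 to 39.7 CPM against 4.39 to 10.6 CPM, and in the lower 12 the CD11clo RAS means stand over CD11clo Sham, often through library 3, as for Cadm1 at 196 CPM.

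Most of the 12 genes of smallest p in the second direction were, in Sham, more abundant in KRM than in CD11cloMϕ. Levels in this paragraph were rescaled over all 21 libraries. Cadm1 was at 594 to 674 CPM in KRM Sham, 171 to 350 CPM in CD11chi Sham and 6.93 to 9.04 CPM in CD11clo Sham. Cd72 was at 1130 to 1550 CPM, 334 to 762 CPM and 20.2 to 34.6 CPM in the same order. St3gal6 was at 266 to 305 CPM in KRM Sham against 10.1 to 16.6 CPM in CD11clo Sham, and A430084P05Rik at 271 to 339 CPM against 5.87 to 8.73 CPM. In 11 of the 12 genes the highest KRM Sham library was above the highest CD11clo RAS library, beside 45.3% of all genes tested. H2-Q10 was the exception, at 7.3 to 8.9 CPM in KRM Sham and 17 to 110 CPM in CD11clo RAS.

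The genes the study names in its text as higher in KRM leaned the same way. The study chose these 19 genes on these libraries, and the list was put together here after the values had been seen, so it is not independent evidence of a direction. Of the 19, 8 were past the threshold with the lower response in CD11chiMϕ and 0 with the higher, beside 3.16% and 2.09% of all genes. Their median interaction was -1.76, against -0.0508 over all genes tested. Their median change was -0.85 in CD11chiMϕ and 0.97 in CD11cloMϕ, against -0.0314 and -0.00708 over all genes. Among the 8 were Cx3cr1, Vcam1, Tmem119, Mmp13, Fcgr4, C1qa and C1qc, and outside C1qc these are named because they were past the threshold. Vcam1, the adhesion molecule that holds leukocytes bearing the integrin VLA-4, was at 20.3, 7.97 and 5.38 CPM in CD11clo Sham and at 26.1, 37.7, 326 and 81.5 CPM in CD11clo RAS, with an interaction of -4.16 ± 1.29. Mmp13, a collagenase, was at 236, 348 and 184 CPM in CD11chi Sham and at 135, 6.05, 10.3 and 9.02 CPM in CD11chi RAS. All RAS libraries of CD11chiMϕ were below Sham, and the 3 numbered 2 to 4 were below by more than 10-fold. Its CD11clo groups held 11.3, 4.38 and 3.34 CPM and 8.47, 4.39, 192 and 26.7 CPM, and the interaction was -5.86 ± 1.87. Cx3cr1, the fractalkine receptor, was at 489, 655 and 173 CPM in CD11chi Sham and at 553, 99.6, 83.7 and 91.5 CPM in CD11chi RAS, against 231 to 298 CPM and 298 to 878 CPM in CD11cloMϕ, and its interaction was -2.05 ± 0.94. Tmem119, best known as a microglial surface protein, had an interaction of -3.61 ± 1.6. Fcgr4, an activating receptor for antibodies, was at 189.6, 261 and 83.8 CPM in CD11chi Sham and at 146, 54.8, 25.3 and 27.9 CPM in CD11chi RAS, against 28.1 to 43.3 CPM and 26.5 to 200.5 CPM in CD11cloMϕ, with overlap in both populations and an interaction of -2.73 ± 1.03. Of the 11 members short of the threshold, 9 were negative, from -3.31 ± 1.83 for the erythropoietin receptor Epor to -0.62 ± 0.44 for the myosin Myo7a. The positive ones were the metalloprotease Mmp12 at 0.56 ± 0.98 and the transcription factor gene Spi1, listed as Sfpi1, at 0.56 ± 0.45.

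The count of 8 rested on single libraries. It was 2 without CD11chi Sham library 2 or CD11clo RAS library 3, 3 without CD11chi RAS library 3 or CD11clo Sham library 1, and 4 without CD11clo Sham library 2. It was 5 without CD11chi Sham library 1, CD11chi RAS library 2 or 4, CD11clo Sham library 3 or CD11clo RAS library 4, 12 without CD11chi Sham library 3 and 13 without CD11chi RAS library 1. With CD11chi RAS libraries 3 and 4 added together it was 3, and with total library sizes it was 4. The median of the genes the study names as higher in KRM kept its sign throughout these, from -1.31 without CD11chi Sham library 2 to -2.7 without CD11chi RAS library 1. Summed over the 19 genes, the level was 4140 to 5330 CPM in CD11clo Sham and 5260, 5600, 13400 and 6980 CPM in CD11clo RAS libraries 1 to 4, while CD11chiMϕ held 7440, 10400 and 4920 CPM in Sham and 8380, 5890, 5310 and 4630 CPM in RAS.

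Complement genes code for the proteins that tag and lyse targets and for their receptors. Of 19 members tested, 7 were past the threshold with the lower response in CD11chiMϕ and 1 with the higher, beside 3.16% and 2.09% of all genes, and the median interaction was -0.85. C1qa and C1qc, counted among the 7, are also on the list of genes named as higher in KRM. The 3 chains of C1q, the recognition unit of the classical pathway, went together: C1qa had an interaction of -2.301 ± 0.97, C1qb -1.99 ± 0.87 and C1qc -2.18 ± 0.93. C1qa was at 794, 1400 and 654 CPM in CD11chi Sham and 955, 716, 264 and 176 CPM in CD11chi RAS, with RAS libraries 3 and 4 below the Sham range. In CD11cloMϕ it was at 252, 218 and 366 CPM in Sham and at 296, 417, 1898 and 437 CPM in RAS, where library 3 was the highest. The receptors for the complement fragments C3a and C5a were also among the 7, and they are named, like C2 and Gpr77, because they were past the threshold. C5ar1 was at 218, 299 and 81.2 CPM in CD11chi Sham and 182, 76.8, 42.4 and 31.03 CPM in CD11chi RAS, against 259.6, 211 and 250 CPM and 150.1, 397, 892 and 758 CPM in CD11cloMϕ, with an interaction of -2.45 ± 0.93. C3ar1 and Gpr77, a further C5a receptor, had interactions of -2.48 ± 1.02 and -3.11 ± 1.24, and C2, a protease of the classical pathway, one of -3.58 ± 1.24. Properdin (Cfp), the stabiliser of the alternative pathway enzyme, went the other way. It was at 435, 242 and 159 CPM in CD11chi Sham and at 353, 857, 1214 and 1245 CPM in CD11chi RAS, while CD11cloMϕ held 415 to 519 CPM in Sham and 240.2 to 442 CPM in RAS, for an interaction of 2.04 ± 0.603. The count of complement genes lower in CD11chiMϕ was 1 without CD11chi Sham library 2, 2 without CD11clo RAS library 3, 3 without CD11chi RAS library 3 or CD11clo Sham library 2, and 4 without CD11clo Sham library 1 or with CD11chi RAS libraries 3 and 4 added together. The median of complement stayed negative in all of these.

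In the TGF-beta pathway, 3 of 24 members were past the threshold with the lower response in CD11chiMϕ and 0 with the higher, beside 3.16% and 2.09% of all genes, with a median of -0.72. The type I receptor Tgfbr1, the kinase subunit, was at 355, 942 and 224 CPM in CD11chi Sham and at 459, 85.96, 98.9 and 78.5 CPM in CD11chi RAS. CD11cloMϕ held 107, 88.2 and 82.2 CPM in Sham and 139.5, 88.1, 399 and 215 CPM in RAS. CD11chi RAS libraries 2 to 4 lay below all CD11chi Sham libraries and library 1 did not, and the interaction was -2.67 ± 0.99. The ligand-binding type II receptor Tgfbr2 had an interaction of -1.74 ± 0.79, with CD11clo RAS above CD11clo Sham in all libraries. Tgfb3, the third ligand, had the smallest p of all 13540 genes (0.000269) but fell below the abundance limit of the naming rule. It was at 5.52, 12.02 and 5.65 CPM in CD11chi Sham and 4.8, 1.71, 2.17 and 2.34 CPM in CD11chi RAS, and at 0.0998, 0 and 0 CPM in CD11clo Sham and 0.598, 1.85, 31.98 and 4.02 CPM in CD11clo RAS. The groups did not overlap in either population. CD11clo Sham held 1 count of it over its 3 libraries, so the fitted change there depends on the prior count and no fold is given. The ligands Tgfb1 and Tgfb2 had interactions of 0.38 ± 0.52 and -0.98 ± 1.14, neither past the threshold, and Tgfbr3, a coreceptor, -0.19 ± 0.89. The count of 3 was 2 in most of the analyses that left out 1 library and 4 at most.

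Cytosolic ribosomal proteins, the structural proteins of the ribosome, leaned the other way. All 27 members tested had a positive interaction, beside 46.7% of all genes, 14 were past the threshold, beside 2.09%, and none was past it in the negative direction, and the median was 1.03 with 0.89 in CD11chiMϕ and -0.12 in CD11cloMϕ. Rpsa was at 389.9, 357 and 388 CPM in CD11chi Sham and at 298, 1716, 837 and 816 CPM in CD11chi RAS, with an interaction of 1.57 ± 0.58. Rplp0 was at 529, 436 and 466 CPM and 414, 1095, 961 and 891 CPM, with 1.03 ± 0.4. In both, CD11chi RAS library 2 was highest, libraries 3 and 4 were above Sham and library 1 was below the Sham range. Summed over the list, CD11chiMϕ held 6250, 5680 and 5830 CPM in Sham and 5120, 17200, 11500 and 10800 CPM in RAS, and CD11cloMϕ held 4190 to 5680 CPM in Sham and 3640 to 4880 CPM in RAS. The count rested on single libraries: it was 0 without CD11chi RAS library 2, 1 without CD11clo Sham library 1 or CD11clo RAS library 4, 4 without CD11chi RAS library 3, and 25 without CD11chi RAS library 1. It was 6 without CD11chi Sham library 3, CD11chi RAS library 4 or CD11clo RAS library 3, 7 without CD11chi Sham library 2, 6 with CD11chi RAS libraries 3 and 4 added together, 8 with median-of-ratios size factors or with the stricter count filter, 9 with total library sizes and 0 with limma. The median of cytosolic ribosomal proteins was positive in each of these, from 0.59 to 1.26. Ribosomal protein genes have many near-identical pseudogenes, so their values are uncertain wherever the counting split reads between copies.

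S100 and annexin genes, calcium-binding proteins together with partners such as vimentin and the galectins, had the largest share of members past the threshold in the direction of CD11chiMϕ. Of 20 members tested, 11 were past it with the higher response in CD11chiMϕ and 0 with the lower, beside 2.09% and 3.16% of all genes, and the median interaction was 1.38, with 1.05 in CD11chiMϕ and -0.34 in CD11cloMϕ. Capg, an actin-capping protein, was at 242, 102 and 64.5 CPM in CD11chi Sham and at 251, 819.5, 527 and 508 CPM in CD11chi RAS, the RAS libraries all above Sham. It was at 383 to 469.5 CPM in CD11clo Sham and 171 to 488 CPM in CD11clo RAS, for an interaction of 2.24 ± 0.68. Lgals3, which encodes galectin 3, a lectin linked to kidney fibrosis, was at 616, 387 and 250.4 CPM in CD11chi Sham and at 559.8, 2023, 1064 and 962 CPM in CD11chi RAS. Its CD11clo values were 1124, 1090 and 721 CPM in Sham and 868, 998, 420.3 and 726 CPM in RAS, lowest in library 3, and the interaction was 1.84 ± 0.62. Vim, the intermediate filament protein vimentin, had an interaction of 1.701 ± 0.65. Anxa1, a mediator of inflammation resolution, had 1.74 ± 0.64, S100a4 2.04 ± 0.797, S100a6 1.78 ± 0.68, S100a10 1.82 ± 0.64, S100a11 1.52 ± 0.64, S100a13 1.397 ± 0.49 and Lgals1 1.501 ± 0.59; apart from Lgals3 and Vim these are named because they were past the threshold. Anxa4, described above, was the remaining one. In CD11cloMϕ, RAS library 3 was the lowest of its group for Capg, Lgals3, Vim, Anxa1, S100a4, S100a6, S100a10 and S100a11. The count of S100 and annexin genes was 5 without CD11chi RAS library 2, 7 without CD11chi Sham library 3 and 9 to 15 without any other single library, and their median stayed between 1.05 and 1.71.

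Cell cycle genes leaned towards CD11chiMϕ as well. Of 30 tested, 4 were past the threshold with the higher response and 0 with the lower, beside 2.09% and 3.16% of all genes. A positive interaction was found in 26, beside 46.7% of all genes, and the median was 0.49. Beside Ube2c these were the mitotic cyclin Ccna2, the spindle checkpoint kinase Bub1b and the mitotic kinase Aurkb, all 3 named because they were past the threshold. Ccna2 was at 21.98, 18.8 and 11.2 CPM in CD11chi Sham and 23.3, 27, 58.5 and 55.5 CPM in CD11chi RAS, with no overlap, and at 2.25 to 3.55 CPM and 1.502 to 2.89 CPM in CD11cloMϕ. Its interaction was 1.59 ± 0.56, that of Bub1b 1.23 ± 0.54 and that of Aurkb 1.74 ± 0.63. Summed over the list, CD11chi RAS held 895, 1310, 1940 and 1920 CPM against 632 to 1100 CPM in CD11chi Sham, and CD11cloMϕ stayed at 239 to 296 CPM in Sham and 245 to 429 CPM in RAS. The abundant members Pcna, Stmn1 and Mcm6 had interactions of 0.199 ± 0.36, 0.79 ± 0.67 and -0.15 ± 0.53. Depending on the library left out, 3 to 5 cell cycle genes were past the threshold.

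**Figure D3:**
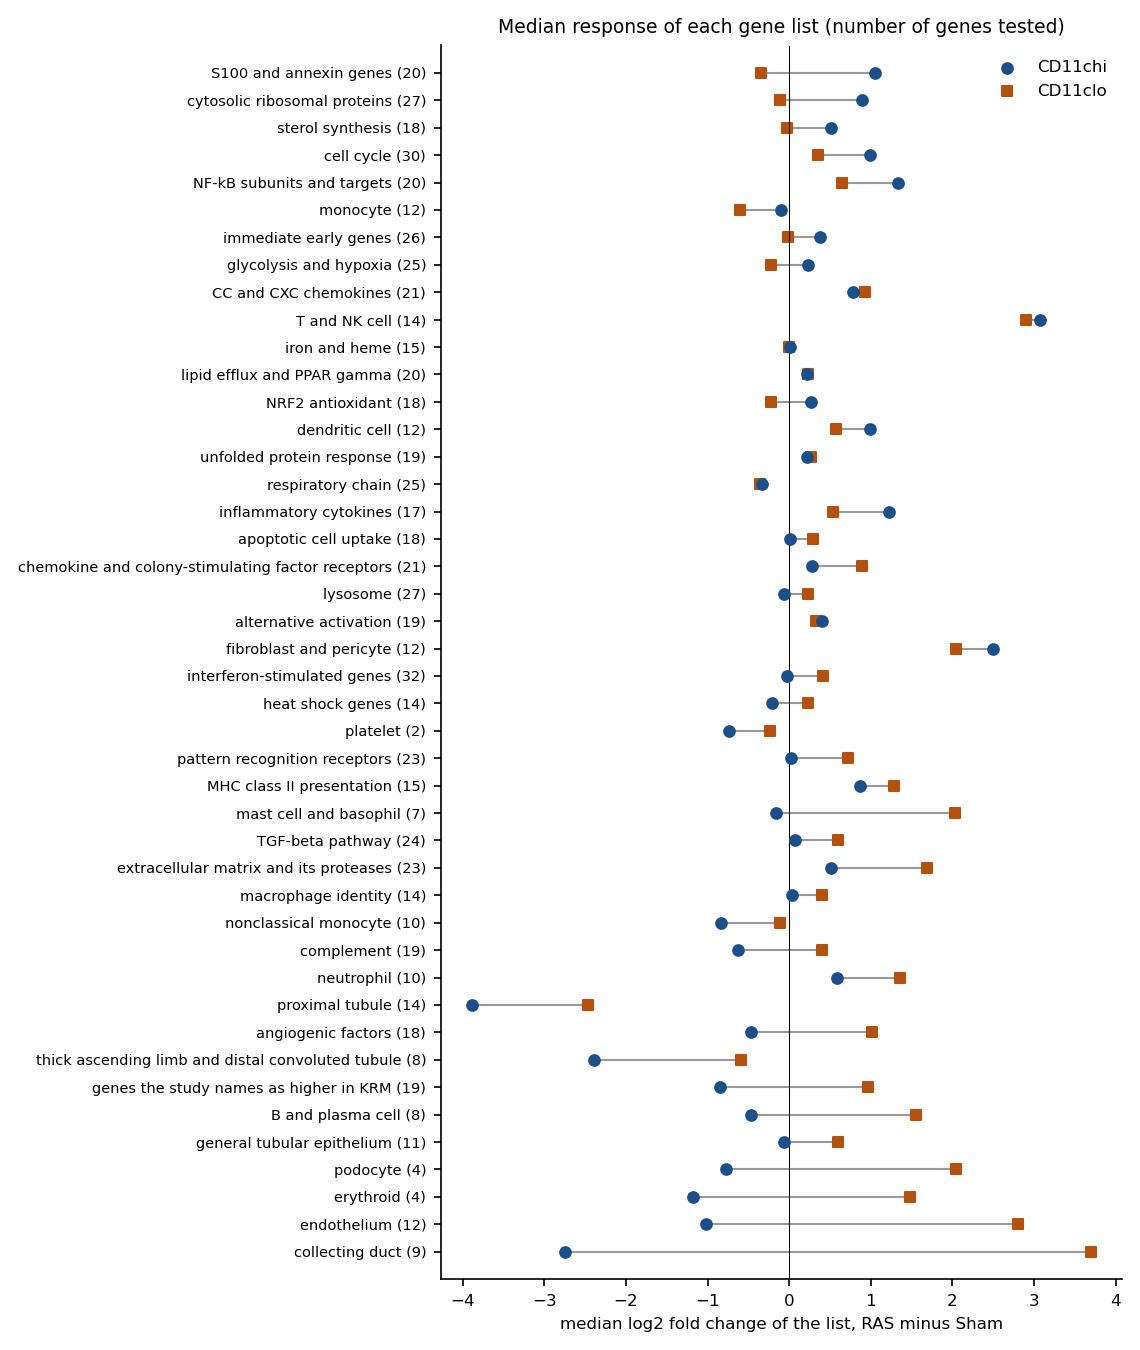
Median log2 change with RAS of each gene list in CD11chiMϕ (circles) and CD11cloMϕ (squares), with the number of genes tested in parentheses and the lists ordered by their median interaction. S100 and annexin genes and cytosolic ribosomal proteins at the top have medians of 1.05 and 0.89 in CD11chiMϕ and of -0.34 and -0.12 in CD11cloMϕ, and the genes named by the study as higher in KRM, near the bottom, lie at -0.85 and 0.97.

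No inflammatory cytokine tested was past the threshold for the interaction. Il1b, which encodes interleukin 1β, was at 804, 1325 and 839 CPM in CD11chi Sham and at 1081, 4284, 7258 and 7603 CPM in CD11chi RAS. CD11cloMϕ held 1336, 515 and 785 CPM in Sham and 1464, 3889, 6429 and 6901 CPM in RAS. The log2 changes were 2.35 ± 0.68 and 2.41 ± 0.68, and the interaction was -0.057 ± 0.89 with a 95% interval of -1.97 to 1.86, which leaves room for a difference of more than 2-fold either way. In both populations RAS library 1 was the lowest of its group, in CD11chiMϕ inside the Sham range. Of 17 inflammatory cytokines tested, 0 were past the threshold for the interaction in either direction, while 8 were past it upward in CD11chiMϕ and 6 in CD11cloMϕ, and 1 downward in CD11chiMϕ, beside 4.26% of all genes upward in each and 4.53% downward in CD11chiMϕ. For NF-kB subunits and targets, 17 of 20 interactions were positive, beside 46.7% of all genes, and the counts were 0 of 20 for the interaction, 15 upward in CD11chiMϕ and 5 upward in CD11cloMϕ, with none downward. Their medians were 1.33 in CD11chiMϕ and 0.64 in CD11cloMϕ, and the median interaction was 0.48. The unequal counts are no test of a difference, and the interaction is that test. The NF-kB inhibitor gene Nfkbia had 1.55 ± 0.73 (p 0.0537) and the deubiquitinase gene Tnfaip3 1.44 ± 0.73 (p 0.0722), whereas Cd83, an activation marker, had -0.64 ± 1.14. Without CD11chi RAS library 1 the NF-kB count of the interaction was 5, without CD11chi Sham library 1 it was 3 and without CD11clo Sham library 1 it was 1.

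The C-type lectin Clec7a, the receptor for fungal β-glucan, was higher in RAS than in Sham in both populations. It was at 214, 335 and 137 CPM in CD11chi Sham and 353, 766, 1505 and 1556 CPM in CD11chi RAS, and at 453, 323 and 448 CPM in CD11clo Sham and 504, 809.7, 1056 and 1426 CPM in CD11clo RAS. RAS lay above Sham without overlap in both, by little in RAS library 1 of each. The interaction was 0.97 ± 0.69, short of the threshold, which does not show that the responses were equal. Among immediate early genes, which respond within minutes to stimulation, 2 of 26 were past the threshold, both higher in CD11chiMϕ and named for that, beside 2.09% of all genes. Fosl2, an AP-1 subunit, was at 48.1, 50.1 and 34.1 CPM in CD11chi Sham and 53.9, 273, 327 and 328 CPM in CD11chi RAS, with an interaction of 1.71 ± 0.72. Nr4a3, an orphan nuclear receptor, was at 7.55, 5.86 and 7.78 CPM and 5.98, 244, 212 and 222 CPM, library 1 again within Sham, with 2.77 ± 1.26. The abundant members Fos, Dusp1 and Zfp36 had -0.11 ± 0.54, -0.046 ± 0.55 and 0.41 ± 0.63.

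Chemokines, the secreted proteins that attract leukocytes, held members of both directions among 21 tested. Ccl6 and Ccl9 had the higher response in CD11chiMϕ: Ccl9 was at 514, 423 and 132 CPM in CD11chi Sham and 512, 1063, 1243 and 1215 CPM in CD11chi RAS, against 726 to 1198 CPM and 615 to 1084 CPM in CD11cloMϕ. Their interactions were 1.45 ± 0.62 and 1.79 ± 0.61. Ccl12 and Cxcl16, named because they were past the threshold, had the lower response. Cxcl16, the transmembrane ligand of Cxcr6, was at 51.4, 61.4 and 66.6 CPM in CD11clo Sham and 95.8, 107, 971 and 245 CPM in CD11clo RAS, all RAS libraries above Sham, and at 358 to 810.5 CPM and 455 to 725 CPM in CD11chiMϕ, for an interaction of -2.47 ± 0.93. Ccl12, a ligand of Ccr2, had -4.31 ± 1.49, and its 586 CPM in CD11clo RAS library 3 stood against 29.3 to 58.7 CPM in the other CD11clo RAS libraries. Of the chemokines the study discusses, Ccl2 had 0.15 ± 0.74, Ccl7 -0.78 ± 1.08 and Ccl8 -3.37 ± 1.6 (p 0.055). Ccl8 was at 4.59, 2.47 and 6.68 CPM in CD11clo Sham and 42.7, 28.3, 235 and 20.6 CPM in CD11clo RAS, all above Sham, and overlapped in CD11chiMϕ. Ccl20 did not pass the filter on low counts.

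The remaining genes taken from the study's account of RAS were short of the threshold, while Vcam1, Mmp13 and Tnc, which it also discusses, were past it and have their values elsewhere. The interaction was -0.38 ± 1.07 for Tnf, 0.65 ± 0.75 for Il6, 0.42 ± 0.48 for Nfkb1, 0.12 ± 1.36 for Il10, 0.43 ± 0.48 for Irf5 and -0.27 ± 0.38 for Mx1. The errors show how little these libraries restrict Tnf and Il10. Mx1, an antiviral GTPase, was the best measured of them, with a 95% interval of -1.096 to 0.56 and 25.4 to 44.2 CPM in CD11chi RAS against 48.1 to 49.7 CPM in CD11clo RAS. Vegfa, the endothelial growth factor, had 0.048 ± 1.24. Its CD11chi Sham values were 9.102, 7.09 and 98.5 CPM, the high one in library 3 with its tubular markers, and its CD11chi RAS values were 13.8, 45.8, 116 and 113 CPM. Angpt1, the angiopoietin that steadies vessels, had -2.98 ± 2.74, with 12.9 CPM in CD11chi Sham library 3 and 0 in the other CD11chi Sham libraries. Without library 3 its interaction was 5.27, a fitted value from groups at or near 0 counts.

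Of 15 genes of antigen presentation by MHC class II, 5 were past the threshold upward in CD11chiMϕ and 7 in CD11cloMϕ, beside 4.26% of all genes in each, and none of the H2 genes was past it for the interaction. Cd74, the invariant chain, was at 42900, 39920 and 19130 CPM in CD11chi Sham and 34440, 44330, 72010 and 68400 CPM in CD11chi RAS. In CD11cloMϕ it was at 4867, 6039 and 8042 CPM in Sham and 8469, 9209, 47690 and 20080 CPM in RAS. Every CD11clo RAS library was above Sham, library 3 by the most, and the CD11chi groups overlapped. The interaction was -1.07 ± 0.88 for Cd74, -1.13 ± 0.86 for H2-Ab1 and -1.15 ± 0.85 for H2-Aa. The median of MHC class II presentation was -0.63 and turned to 0.14 without CD11clo RAS library 3. The member past the threshold was Ifi30, the lysosomal thiol reductase that unfolds antigens, named for that, at 253, 201 and 121 CPM in CD11chi Sham and 208, 852, 702 and 624 CPM in CD11chi RAS and with an interaction of 1.86 ± 0.58.

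Interferon-stimulated genes numbered 32, of which 2 were past the threshold with the lower response in CD11chiMϕ and 0 with the higher, beside 3.16% and 2.09% of all genes. These were Ifi44 (-2.58 ± 1.03) and the antiviral GTPase Mx2 (-1.61 ± 0.63), both at low level and named because they were past it. The abundant Irf1, a transcription factor of the response, had -0.33 ± 0.31. The count was 7 without CD11chi Sham library 3 and 8 without CD11chi RAS library 1. Heat shock genes, which code for chaperones, were negative in all 14 members, where 46.7% of all genes were positive. The lower response was past the threshold in 2, beside 3.16% of all genes. Hspa1b was at 6836, 5639 and 3684 CPM in CD11chi Sham and 3889, 731, 1688 and 1734 CPM in CD11chi RAS, and at 1304, 2505 and 2739 CPM and 2702, 1331, 4088 and 2207 CPM in CD11cloMϕ, for an interaction of -1.66 ± 0.75. Its near-identical copy Hspa1a, with which it can share reads, had -1.47 ± 0.72, and Dnajb1, a cochaperone past the threshold, -1.02 ± 0.45. No heat shock gene was past the threshold without CD11chi Sham library 1, CD11chi RAS library 3, CD11clo Sham library 1 or 2 or CD11clo RAS library 3, or with total library sizes or CD11chi RAS libraries 3 and 4 added together.

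Matrix, vessel and metabolic lists held few genes past the threshold, which 2.09% of all genes passed higher and 3.16% lower. Among 23 matrix genes and proteases, Adam8, a leukocyte metalloprotease, was higher (2.01 ± 0.75), with CD11chi RAS at 140.2, 312, 408 and 446 CPM above all Sham libraries at 122, 65.8 and 31.5 CPM, and Mmp13 and Tnc were lower. Tnc, tenascin C, had 0 counts in all CD11clo Sham libraries and 0, 23.3, 6.9 and 5.32 CPM in CD11clo RAS, and no fold is given. Among 18 angiogenic factors only Kdr, the receptor of Vegfa, was past it, at -4.02 ± 1.65. Kdr was at 40.8 CPM in CD11chi Sham library 3 against 2.905 and 3.698 CPM in the other CD11chi Sham libraries. The median interaction of the 18 was -1.36, with 4 positive, beside 46.7% of all genes. Their median change was -0.47 in CD11chiMϕ and 1.02 in CD11cloMϕ, and their median SE of the interaction was 1.23. In lipid handling, Fabp5, a fatty acid binding protein, was at 24.7, 18.5 and 33.1 CPM in CD11chi Sham and 42.5, 432, 116 and 102 CPM in CD11chi RAS, library 2 by far the highest, with an interaction of 2.402 ± 0.83. Pparg, the nuclear receptor of fatty acids, and Mylip, which degrades the LDL receptor, had -1.301 ± 0.59 and -2.104 ± 0.75. The glycolytic kinases Hk2 and Pfkp had 1.24 ± 0.44 and 1.35 ± 0.53, 2 of 25 genes in glycolysis and hypoxia. Sterol synthesis had 17 of 18 members positive, beside 46.7% of all genes, and 0 past the threshold, with a median of 0.596. In the uptake of apoptotic cells, Mfge8, a bridge to phosphatidylserine, was higher (2.08 ± 0.79) and its counterpart Gas6 (-3.22 ± 1.37) and the integrin Itgb5 (-1.97 ± 0.86) were lower. Gas6 was at 366 CPM in CD11chi Sham library 3 against 23.3 and 42.9 CPM in the other CD11chi Sham libraries. The genes from Adam8 to Itgb5 are named because they were past the threshold. No gene was past it among 25 of the respiratory chain, 23 pattern recognition receptors, 18 NRF2 antioxidant genes and 19 genes of alternative activation. The heme transporter Slc48a1 (1.13 ± 0.41) was past it among 15 iron and heme genes, the lysosomal protease Lgmn (-1.68 ± 0.704) among 27 lysosome genes, and the glutathione-degrading Chac1 among 19 of the unfolded protein response. Among the 21 receptors for chemokines and colony-stimulating factors, Cx3cr1 and Cxcr3 (-2.45 ± 0.91) were lower, while Csf1r and Ccr2 had -1.08 ± 0.72 and 0.092 ± 0.66.

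The genes behind the sort gates bear on what the populations were. Itgax, which encodes CD11c, was at 363, 363 and 116 CPM in CD11chi Sham and 353, 448, 894 and 888 CPM in CD11chi RAS, against 11.7, 17.1 and 27.03 CPM and 8.18, 36.6, 56.6 and 45.9 CPM in CD11cloMϕ, so all 7 CD11chi libraries were above all 7 CD11clo libraries. Its interaction was 0.22 ± 0.82, and Itgam, which encodes CD11b, had 0.16 ± 0.71. Emr1, the gene of F4/80, was at 639, 912 and 319 CPM in CD11chi Sham and 736, 192, 124 and 114 CPM in CD11chi RAS, and at 743, 841 and 517 CPM and 848, 686, 1789 and 819 CPM in CD11cloMϕ. CD11chi RAS libraries 2 to 4 lay below all CD11chi Sham libraries, and library 1 within them. Fcgr1, the gene of CD64, showed 87.2, 108 and 41.04 CPM in CD11chi Sham and 113, 44.5, 19.8 and 11.9 CPM in CD11chi RAS, against 61.7 to 92.03 CPM in CD11clo Sham and 117 to 237 CPM in CD11clo RAS. The interactions were -1.66 ± 0.88 for Emr1 (p 0.0804) and -1.61 ± 0.86 for Fcgr1 (p 0.0832), neither past the threshold. Ly6c2, a gene of Ly6C, was at 10.4 to 62.6 CPM in CD11chi Sham, 6.52 to 109 CPM in CD11chi RAS, 549 to 957 CPM in CD11clo Sham and 201 to 762 CPM in CD11clo RAS, and had 0.46 ± 1.22. Of the 14 macrophage identity genes, 2 were past the threshold lower, C5ar1 among them, beside 3.16% of all genes, and the median was -0.75.

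Dendritic cell markers were detected in all libraries, and all 12 were tested. Their sum was 2250, 1670 and 743 CPM in CD11chi Sham, 1630, 2550, 5320 and 5680 CPM in CD11chi RAS, 399 to 510 CPM in CD11clo Sham and 489 to 723 CPM in CD11clo RAS. The most abundant, Cd209a, was at 1392, 673 and 223 CPM in CD11chi Sham and 669.7, 1406, 3901 and 4111 CPM in CD11chi RAS, with an interaction of -0.083 ± 1.13. CD11chi RAS libraries 3 and 4, highest for these markers, were the lowest of the 7 CD11chi libraries for Emr1, Fcgr1, C1qa and Cadm1. Other macrophage genes did not follow: Itgam was at 725 and 786 CPM in libraries 3 and 4, against 126 to 771.5 CPM in CD11chi Sham. Macrophage identity genes summed to 20300 and 18500 CPM there, against 7510 to 19500 CPM in CD11chi Sham. Their median change in CD11chiMϕ was 0.0302. Siglech, best known from plasmacytoid dendritic cells, was the member past the threshold for the interaction, at -4.302 ± 1.36, and is named for that. The part of a changed mix of cells within the CD11chi gate in these results was not tested.

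Markers of other cell types moved with the groups in several places. T and NK cell markers, of which 14 were tested, summed to 38.2 to 56 CPM in CD11chi Sham and to 480, 221, 136 and 157 CPM in CD11chi RAS. In CD11cloMϕ they summed to 8.19 to 13 CPM in Sham and to 28.3 to 76.7 CPM in RAS. Of the 14, 11 were past the threshold upward in CD11chiMϕ and 8 in CD11cloMϕ, beside 4.26% of all genes in each. The interaction, with 2.09% of all genes upward and 3.16% downward, had 1 past the threshold upward (Gzmb, 3.76 ± 1.65) and 2 downward (Cd4, -3.35 ± 1.36, and Cd8a, which had 0 counts in CD11clo Sham). Cd4 is also made by macrophages. Gzmb and Cd8a are named because they were past the threshold. Monocyte markers summed to 721 to 3490 CPM in CD11chi Sham, 1980 to 3090 CPM in CD11chi RAS, 7510 to 18900 CPM in CD11clo Sham and 3770 to 10800 CPM in CD11clo RAS, with S100a4 the 1 of 12 past the threshold.

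Among kidney cells other than leukocytes, tubular and endothelial markers were highest of all CD11chi libraries in CD11chi Sham library 3. Podocyte markers were lower there (256 CPM) than in the other CD11chi Sham libraries (418 and 553 CPM), and fibroblast and pericyte markers were highest in the RAS libraries numbered 2, at 347 CPM in CD11chiMϕ and 444 CPM in CD11cloMϕ. Within CD11cloMϕ, endothelial and collecting duct markers were highest in RAS library 4, at 328 and 65.9 CPM. Collecting duct markers had 5 of 9 past the threshold with the lower response in CD11chiMϕ, beside 3.16% of all genes, and a median of -4.77, and endothelium had 2 of 12 and -3.85. Without CD11chi Sham library 3 neither list had a member past it, and the medians were -0.66 for collecting duct and -0.73 for endothelium. Of 14 proximal tubule markers, 10 were past the threshold lower in RAS in CD11chiMϕ and 4 in CD11cloMϕ, beside 4.53% and 1.02% of all genes, with 1 past it for the interaction. Without both Sham libraries numbered 3 none was past it lower in either population, and the median changes went from -3.89 and -2.46 to 0.47 and 0.58. For the interaction, 4 were past it higher without CD11chi Sham library 3 (median 2.72), 6 lower without CD11clo Sham library 3 (median -4.16), and 0 without both. Podocyte, fibroblast and pericyte, and mast cell and basophil markers had 2, 1 and 1 past it, all lower in CD11chiMϕ, and nonclassical monocyte, neutrophil, B and plasma cell, erythroid, platelet, distal tubule and general tubular markers had none. Hdc, which makes histamine and is shared by basophils and myeloid cells, was the mast cell and basophil member, at 38.3, 36.2 and 23.8 CPM in CD11clo Sham and 25.8, 206, 255 and 661 CPM in CD11clo RAS. Without both Sham libraries numbered 3, 408 genes were past the threshold higher and 447 lower.

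**Figure D4:**
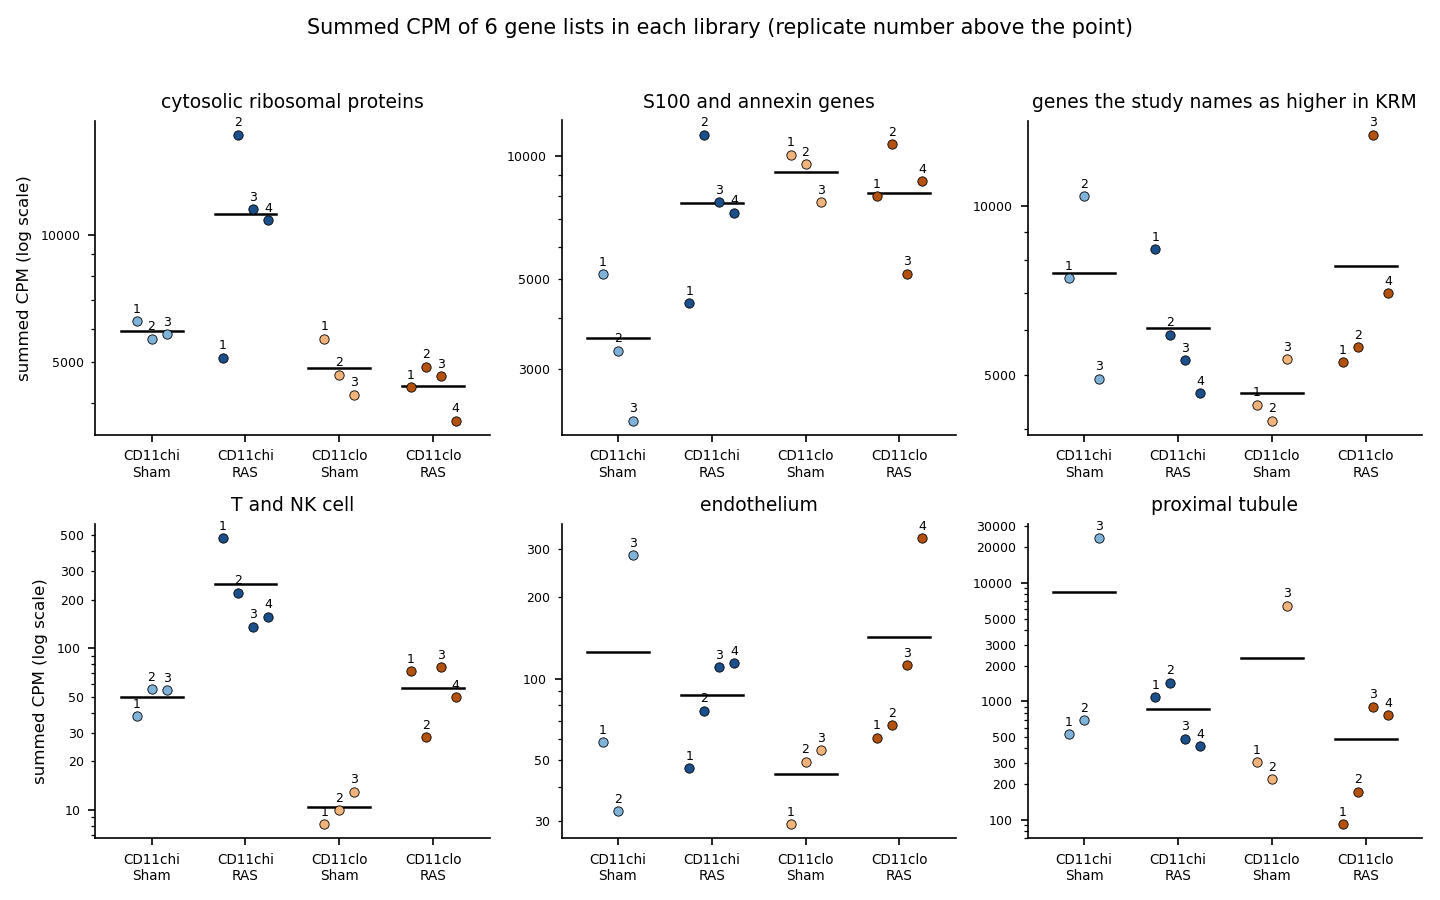
Summed CPM of 6 gene lists in each of the 14 libraries on a log axis, with the library number above each point and a bar at the arithmetic mean of the group. Cytosolic ribosomal proteins reach 10800 to 17200 CPM in CD11chi RAS libraries 2 to 4 and 5120 CPM in library 1, and proximal tubule markers stand at 23800 and 6420 CPM in the Sham libraries numbered 3.

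The total of genes past the threshold ran from 434 without CD11clo RAS library 3 to 1288 without CD11chi RAS library 1, and was 1110 without CD11clo Sham library 3. The higher and lower counts were 521 and 767 without CD11chi RAS library 1, and 149 and 423, 138 and 343, and 148 and 352 without CD11chi RAS libraries 2, 3 and 4. With CD11chi RAS libraries 3 and 4 added together there were 483 in total, 138 higher and 345 lower. In each of these 5 the lower genes were the larger group, at 59.5% to 74% of the total. No analysis with edgeR called a gene for the interaction at an adjusted p of 0.05.

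**Figure D5:**
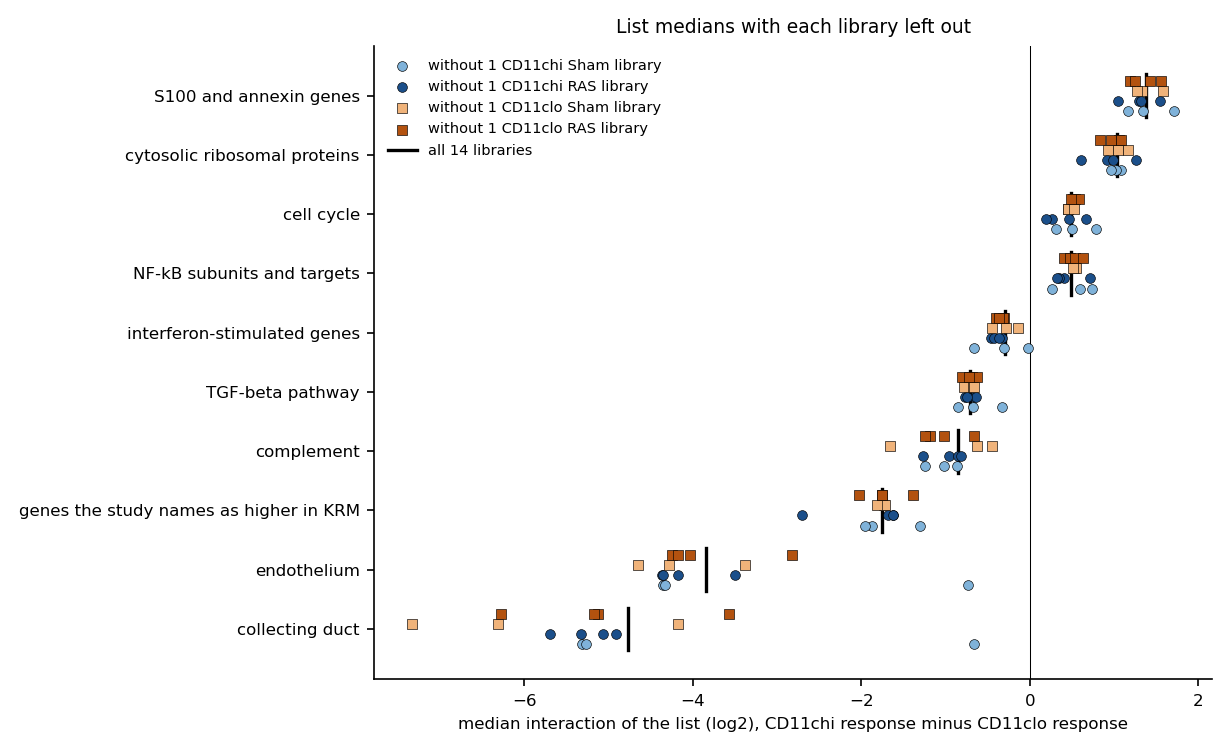
Median interaction (log2) of 10 gene lists with all 14 libraries (vertical bar) and with each library left out in turn, 1 point per library left out. The medians of S100 and annexin genes stay between 1.05 and 1.71, and those of collecting duct and endothelium move to -0.66 and -0.73 without CD11chi Sham library 3.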

How the data were processed

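RNA-seq was made by the authors from flow-sorted kidney macrophages with an ultra-low input cDNA kit and Nextera XT libraries, aligned to mm10 with the OSA aligner and annotated with Ensembl (aligner version not given in the sources used here). The deposited table holds estimated counts per gene, not normalized, with no library pooled. A second deposited table holds TPM after quantile normalization, which the values show to be on a log2 scale, and served in 1 alternative. The authors' own comparisons were not used.

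Counts were rounded, and 37620 lines were summed to 34236 symbols. The 4 groups of the contrast (14 libraries) were fitted with edgeR 4.0.16 in R 4.3.3 (limma 3.58.1, DESeq2 1.42.0), with TMM scaling. edgeR's own low-count filter kept 13540 genes. It asked for about 10 counts in as many libraries as the smallest group holds, not in every library. A total of 15 counts was also required. Quasi-likelihood F tests were two-sided, with Benjamini-Hochberg adjustment over all genes tested. CPM are counts per unit of TMM-scaled library size (counts over 1000000). Amplified cDNA was counted without molecular identifiers, so counts are not independent molecules. The method was tested on simulated data.

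The contrast and the gene lists were chosen with earlier results of these data known. Named genes were the 12 of smallest p in each direction at an average log2 CPM of at least 3, list members with an adjusted p under 0.05 (none), up to 3 most abundant members per list, genes the study discusses for RAS and the sort genes. List members past the study's threshold were added after their values were seen, and the text says so. The list of genes the study names as higher in KRM was also put together after values were seen. Of 711 list genes, 706 were found, 13 under an older symbol. Positions are from GENCODE on GRCm38. There were 27 alternatives, given in the closing section, and adding CD11chi RAS libraries 3 and 4 together and leaving KRM RAS library 1 out of the fit with KRM were chosen after seeing the data. Some genes and markers are not reported here.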

Additional observations from a re-analysis of the deposited data

Results flagged for a closer look

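Within the RAS groups of 4 libraries, 84 groups of values were examined for a library that stood far from the other 3 (Dixon's gap test at the 95% level), and 10 did, where chance gives about 1 in 20. Groups of 3 were not examined. Of the genes with the smallest interaction p, St3gal6 was at 84.6 CPM in CD11chi RAS library 1 against 13.3 to 17.5 CPM in the others, Cd72 at 469 CPM there against 201 to 224 CPM, and Trove2 at 12.2 CPM there against 5.6 to 6.05 CPM. Adam22 was at 5.43 CPM in CD11chi RAS library 2 against 17.4 to 18.6 CPM, and at 35 CPM in CD11clo RAS library 3 against 5.43 to 9.68 CPM. Arhgap12 was at 61.4 CPM in CD11clo RAS library 3 against 31.8 to 36.3 CPM, and Anxa4 at 123 CPM in CD11clo RAS library 2 against 105 to 106 CPM. Erythroid markers summed to 283 CPM in CD11chi RAS library 1 against 11.8 to 48.3 CPM, and to 324 CPM in CD11clo RAS library 3 against 40.4 to 80.4 CPM. General tubular epithelium markers summed to 1530 CPM in CD11chi RAS library 2 against 283 to 490 CPM. Of these 10 values, 7 fell in CD11chi RAS library 1 or CD11clo RAS library 3, the libraries without which the count of genes past the threshold was highest and lowest. Their part in these values was not tested.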

How the results depend on the processing

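Results were recomputed under 27 alternatives. Some genes were not tested in all of them, and the replicate block within treatment gave the interaction alone. The 0 genes with an adjusted p under 0.05 for the interaction became 15 with DESeq2 and remained 0 in the others. The 711 genes past the study threshold became 1111 with no filter on low counts and 1068 with all 21 libraries in the fit, and ran from 434 to 1288 with 1 library left out. KRM RAS library 1, which enters the fit of 21, correlated at 0.655 between the count and log2 tables, against 0.879 to 0.926 for the other 20 libraries. Without it that fit gave 1227 genes past the study threshold, 8 calls for CD11chiMϕ alone and 3 for CD11cloMϕ alone. For CD11chiMϕ alone the 0 calls became 229 with DESeq2, 53 with limma, 5 with all 21 libraries and 0 to 459 with 1 library left out, the highest without CD11chi RAS library 1. For CD11cloMϕ alone they became 128 with DESeq2 and 0 to 4 with 1 library left out, the highest without CD11clo RAS library 1. The causes of these differences were not tested.

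Of 6258 values for 234 named genes, 233 (3.72%) changed sign. Reversals in which either value had an unadjusted p under 0.05 were Atp5b, Atp5a1 and Scnn1b without CD11chi Sham library 3 and Cd8a with limma (1.16). With 1 library left out Atp5b ran from -0.56 to 0.67, Atp5a1 from -0.26 to 0.65 and Scnn1b from -9.65 to 0.93. With DESeq2 the adjusted p fell below 0.05 for Gpc1 (0.0284), Tbc1d4 (0.0387), A430084P05Rik (0.0284), St3gal6 (0.0284) and Tgfb3 (0.00175). Over the other alternatives adjusted p reached 0.972 for these.

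Replicate numbers are shared by the groups. Deviations of same-numbered libraries of the 2 populations correlated at 0.36, 0.401 and 0.665 in Sham and at 0.25, 0.265, 0.0694 and 0.0926 in RAS, all positive. Of 7 CD11chi libraries, 4 correlated best with their own number. Whether the numbers pair the libraries, or mark a shared preparation, cannot be told from these values. The main fit and its list counts took no account of the numbers. With a replicate block within treatment the interaction had 0 calls and 843 genes past the threshold, 364 higher and 479 lower, and with a replicate block across treatments 0 calls and 676 genes.

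There were 3 or 4 libraries per group, with a biological coefficient of variation of 0.556 and a median SE of 0.557. Even Tbc1d4 at 3.53 log2 units and St3gal6 at -4.505 had an adjusted p of 0.735 by edgeR. Interactions of under 2-fold, and many larger ones, can therefore be missed. Whether libraries of the 2 populations share animals is not given in the labels.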
